A study of Mus musculus with 6 samples.

Results

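Among 9 genes that detect foreign or misplaced nucleic acid, 1, Ifih1, was called higher in sorted cap mesenchyme of the Dnmt1 knockout. The other 8 did not pass the test. The Ifih1 call lay just inside the threshold (adjusted p = 0.0472, edgeR) and was lost without any 1 of 5 of the 6 libraries. The part of other cell types of the sort in its level was not tested. The 9 genes were taken by name as sensors, adaptors and editors of the viral defence system: Ddx58, Ifih1, Dhx58, Tlr3, Mavs, Tmem173, Zbp1, Eif2ak2 and Adar. They are 9 of the 26567 mouse genes that could be paired with a deposited transcript, and all 9 were among the 16989 that passed the filter on low counts.

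RNA came from cap mesenchyme, the nephron progenitor layer of the embryonic kidney, sorted by flow cytometry from C57BL/6 mouse embryos at embryonic day 18.5. All 6 libraries came from mice that carried Six2.Cre, a recombinase driven by regulatory sequence of the progenitor gene Six2, together with a conditional allele of the maintenance methyltransferase Dnmt1. The heterozygous group (3 libraries, genotype given as Dnmt1 +/-) lost 1 copy and the knockout group (3 libraries, given as Dnmt1 -/-) lost both, so the comparison has no group without Cre or with both copies intact. Whether the 3 libraries of a group stand for separate embryos is not stated. The p-values therefore reflect the variation among these samples alone, and part of it may be technical. Recombination is limited to cells that have expressed Six2 and their descendants, so cells of other lineages in the sort keep their alleles.

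Cells tell viral from own nucleic acid mainly by structure and location. In the cytoplasm the helicases RIG-I (Ddx58) and MDA5 (Ifih1) bind double-stranded RNA and signal through the mitochondrial adaptor Mavs, while LGP2 (Dhx58) binds such RNA but cannot signal itself. Tlr3 reads double-stranded RNA in endosomes, and STING (Tmem173, now Sting1) relays the presence of cytosolic DNA. Zbp1 binds left-handed nucleic acid and can start necroptosis, the kinase PKR (Eif2ak2) halts translation when it meets double-stranded RNA, and Adar edits adenosines in the cell's own duplexes, which keeps MDA5 from reading them. Several of these genes are themselves induced by interferon, and MDA5 is known as a reader of transcripts from endogenous retroelements in cancer cells treated with inhibitors of DNA methylation.

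Promoter windows of 300 bases, from 250 before to 50 after the start site, were given by RefSeq (build GRCm38.p6) for 6 of the 9 genes. Dhx58, Tmem173 and Zbp1 were without one. The following 4 windows are shown because they hold letters resembling an interferon-stimulated response element, the site through which interferon acts on its target genes. Each is written from 5′ to 3′ on the strand of its gene. Capitals mark matches on either strand to the core of that element (GAAA, any 2 bases, then GAAA) or to the shorter GAAANNGAA, which every match to the core contains.

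Ifih1: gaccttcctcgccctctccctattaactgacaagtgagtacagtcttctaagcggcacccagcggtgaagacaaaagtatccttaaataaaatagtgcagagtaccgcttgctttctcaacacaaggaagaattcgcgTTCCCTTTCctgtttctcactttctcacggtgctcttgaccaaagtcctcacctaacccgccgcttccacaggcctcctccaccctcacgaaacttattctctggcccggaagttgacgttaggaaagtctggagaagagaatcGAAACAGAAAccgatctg
Ddx58: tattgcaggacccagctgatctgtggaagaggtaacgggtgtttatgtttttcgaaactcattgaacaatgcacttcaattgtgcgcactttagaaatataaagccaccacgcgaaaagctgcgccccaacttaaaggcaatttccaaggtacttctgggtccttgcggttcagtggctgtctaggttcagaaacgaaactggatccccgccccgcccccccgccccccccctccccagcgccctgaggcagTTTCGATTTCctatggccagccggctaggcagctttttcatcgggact
Eif2ak2: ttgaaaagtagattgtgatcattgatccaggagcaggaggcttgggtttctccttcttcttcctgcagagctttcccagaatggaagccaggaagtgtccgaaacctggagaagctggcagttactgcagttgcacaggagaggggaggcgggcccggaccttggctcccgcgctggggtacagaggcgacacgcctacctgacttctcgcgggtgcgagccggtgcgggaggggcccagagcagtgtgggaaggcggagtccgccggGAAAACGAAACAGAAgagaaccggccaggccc
Adar: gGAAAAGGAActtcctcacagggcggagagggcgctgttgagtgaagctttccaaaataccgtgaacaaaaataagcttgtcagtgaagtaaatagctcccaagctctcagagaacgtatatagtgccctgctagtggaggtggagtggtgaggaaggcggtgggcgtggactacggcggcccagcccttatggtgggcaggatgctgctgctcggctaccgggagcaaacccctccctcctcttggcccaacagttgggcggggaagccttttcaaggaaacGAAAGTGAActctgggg

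The Ifih1 window lies at chr2:62646206-62646505 on the minus strand, the Ddx58 window at chr4:40239776-40240075 on the minus strand, the Eif2ak2 window at chr17:78882523-78882822 on the minus strand and this Adar window at chr3:89730468-89730767 on the plus strand. The core was present for 3 of the 6 genes, against 3.99% of 27025 genes with a window. In Ifih1 it reads GAAACAGAAA, at 32 to 41 bases past the start base, in Eif2ak2 GAAAACGAAA at 18 to 27 bases past it, and in Ddx58 it lies on the opposite strand at 2 to 11 bases past it. The shorter GAAANNGAA, searched after the windows had been read, was present for 4 of the 6 genes against 9.76% of all. It added the Adar window above, which has GAAAGTGAA at 33 to 41 bases past the start. A fixed kappaB sequence, a binding site of NF-kappaB searched with no variable bases, was in no window of the 6 genes and in 0.174% of all genes. Variants of that sequence, which the kappaB consensus allows, were not searched, so their absence cannot be stated. The 8 windows of these genes held between 6 and 34 CpG sites, with 14 for Ifih1, 15 for Ddx58 and 17 for Eif2ak2, against a median of 7 over all windows. DNA methylation itself was not analysed here, and a match describes letters, not a bound site.

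Dnmt1 served as the check of the labels. Its level was 40.04, 52.4 and 51.7 CPM (counts scaled to a common library size and corrected for composition) in the heterozygous and 20.9, 18.6 and 14.9 CPM in the knockouts, so the groups did not overlap. Library totals lay between 46741667 and 61585484 estimated counts. On the library sizes used for CPM, which leave out unpaired transcripts and carry the composition factor, 3 counts correspond to 0.051 to 0.0662 CPM, a limit that covers counting error only. Markers of cap mesenchyme were abundant in every library, with a sum over 8 genes of 1620 to 1742 CPM in the heterozygous and 1159 to 1433 CPM in the knockout group. Of the 8, 2 were called lower in the knockouts by edgeR, Cited1 and Wt1, beside 1.92% of all genes, and 0 higher. The list median log2 fold change was -0.34. The call of Cited1 was lost without 4 of the 6 libraries in turn, and that of Wt1 without knockout replicate 2. Markers of other cell types were present as well and are given beside the results they accompany.

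Compared per transcript length, in TPM (the deposited length-corrected level), the 9 genes differed widely in level. Ddx58 had the highest mean over the 6 libraries at 23.5 TPM, with a range of 15.5 to 30.6 that overlapped that of Eif2ak2 (8.66 to 17.3). Tmem173 (13.3 TPM), Mavs (12.9 TPM) and Eif2ak2 (12.3 TPM) came next, and their ranges over libraries overlapped. Adar followed with 5.59 TPM and Dhx58 with 5.31 TPM, again with overlapping ranges. The largest share of the TPM of Dhx58 came from Dhx58-006, a non-coding entry of 786 bases, at 1.98 to 4.14 TPM. Its coding transcript Dhx58-001 had 0.931 to 2.10 TPM. Tlr3, Zbp1 and Ifih1 stood lowest with 0.456, 0.374 and 0.309 TPM, and their ranges also overlapped. The RNA of the adaptors and of PKR was thus well above that of the endosomal sensor and of MDA5 in both groups.

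**Figure D1:**
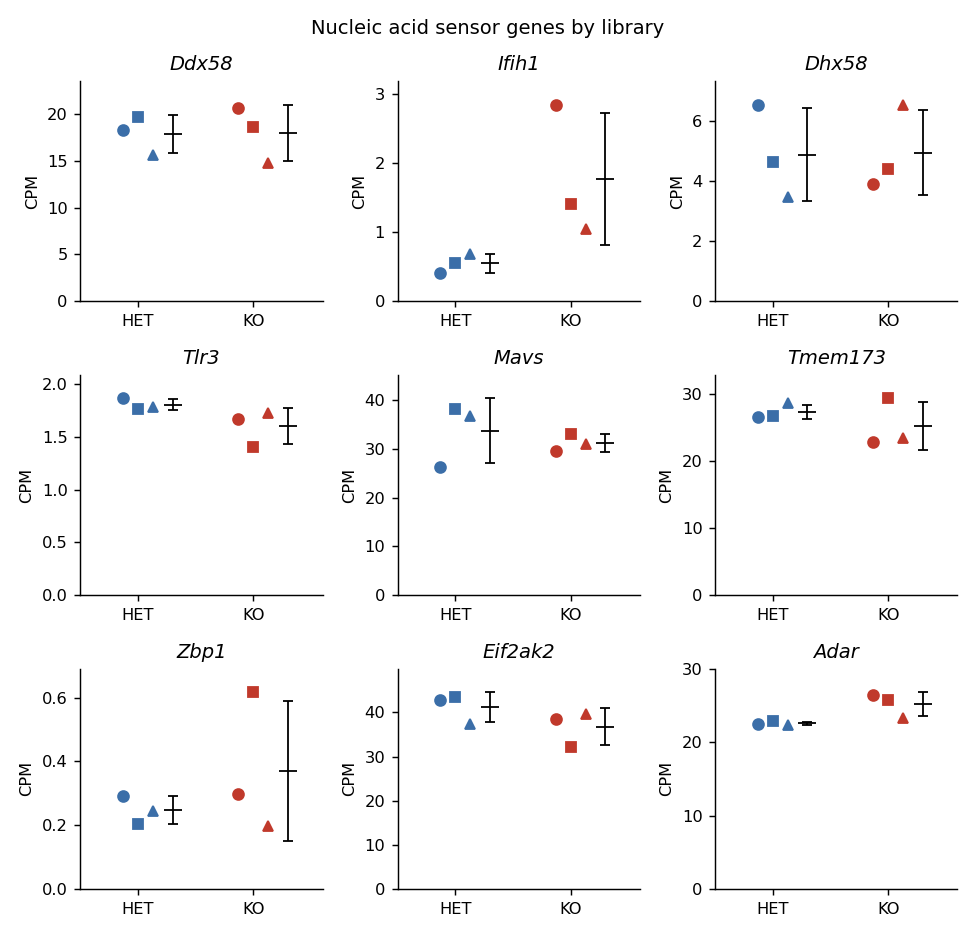
Level of each of the 9 genes in CPM (y axis, from 0) in the 3 heterozygous (HET, blue) and 3 knockout (KO, red) libraries. Circles, squares and triangles are replicates 1, 2 and 3, and the black bar is the mean with its SD. Ifih1 lies at 0.408 to 0.684 CPM in the heterozygous and at 1.04 to 2.84 CPM in the knockouts.

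The gene of the helicase MDA5 was the 1 sensor gene called higher. Ifih1 (GRCm38.p6, chr2:62595618-62646255, minus strand) was at 0.408, 0.561 and 0.684 CPM in heterozygous cells and at 2.84, 1.41 and 1.04 CPM in the knockouts. Every knockout library was above every heterozygous library, and knockout replicate 1 stood well above the other knockout libraries. These levels correspond to 21, 33 and 31 estimated counts against 134, 73 and 53. The mean went from 0.551 ± 0.138 to 1.76 ± 0.952 CPM (SD, n = 3 each). The fitted log2 fold change was 1.67 ± 0.43 (SE), or 3.19-fold with a 95% interval of 1.63 to 6.24. The adjusted p was 0.0472 (edgeR's quasi-likelihood test, Benjamini-Hochberg over all genes), just inside the threshold of 0.05. Of the 9 genes, 1 was called higher (11.1%) and 0 lower, beside 4.92% of all genes tested called higher, 1.92% called lower and 6.85% called in either direction. Ifih1 was also the 1 gene of the 9 with an unadjusted p of 0.05 or less, which 22.0% of all genes had.

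The call for Ifih1 was lost without any of the 3 heterozygous libraries and without knockout replicate 1 or 2, with adjusted p between 0.0885 and 0.156 (edgeR), and was kept without knockout replicate 3 (adjusted p = 0.0279, edgeR). Without knockout replicate 1 the log2 fold change was 1.16. With that library left out, 0 of the 9 genes were called.

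Several marker lists of other cell types took the same order over the knockout libraries as Ifih1. The summed level of 10 endothelial genes, among them Pecam1 and Cdh5, was 219.7, 90.8 and 49.1 CPM in knockout replicates 1 to 3 and 35.1 to 41.9 CPM in the heterozygous libraries. All 10 had a positive log2 fold change, with a median of 2.18, and 1, Emcn, was called higher by edgeR, beside 4.92% of all genes tested. DESeq2 called 4 of the 10, beside 1346 higher and 586 lower of 22656 genes. With 1 library left out, edgeR called 7 without knockout replicate 3, 3 without knockout replicate 1 and 0 without any other. Stromal markers (8 genes, 1 called higher) summed to 757, 350.3 and 270.0 CPM against 207 to 253 CPM, and ureteric bud markers (8 genes, 1 called higher) to 221, 126 and 68.8 CPM against 41.1 to 71.1 CPM. Tubule markers (8 genes, 1 called higher) had 314, 227 and 213 CPM against 197 to 219.8 CPM. Abundant genes weigh most in these sums, and not every member took their order. In the knockouts, Foxd1 of the stromal list was at 15.4, 15.7 and 15.7 CPM. Hoxb7 of the ureteric bud list was at 15.8, 18.9 and 20.8 CPM, and Cdh6 of the tubule list at 50.1, 56.0 and 57.4 CPM. The log2 fold change was positive for 7 of 8 stromal, 8 of 8 ureteric bud and 7 of 8 tubule genes. Markers of macrophages and other blood cells (12 genes, 3 called higher, or 25.0%, beside the same 4.92%) had 43.4, 36.1 and 31.9 CPM. Their heterozygous range was 22.3 to 23.9 CPM, with Tyrobp at 0 in heterozygous replicate 1. Podocyte markers (6 genes, 2 called lower, beside 1.92% of all genes tested) had 65.6, 51.5 and 47.7 CPM against 71.8 to 81.0 CPM. They thus shared that order but were lower than in heterozygous cells. Red cell markers (6 genes, 5 tested, 0 called by edgeR or DESeq2, 1 with an unadjusted p of 0.05 or less) had a different order, with 256, 143 and 317 CPM against 190 to 417 CPM. In bulk RNA more cells of a type and more RNA per cell cannot be told apart, and the part of these cells in the level of Ifih1 was not tested.

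**Figure D2:**
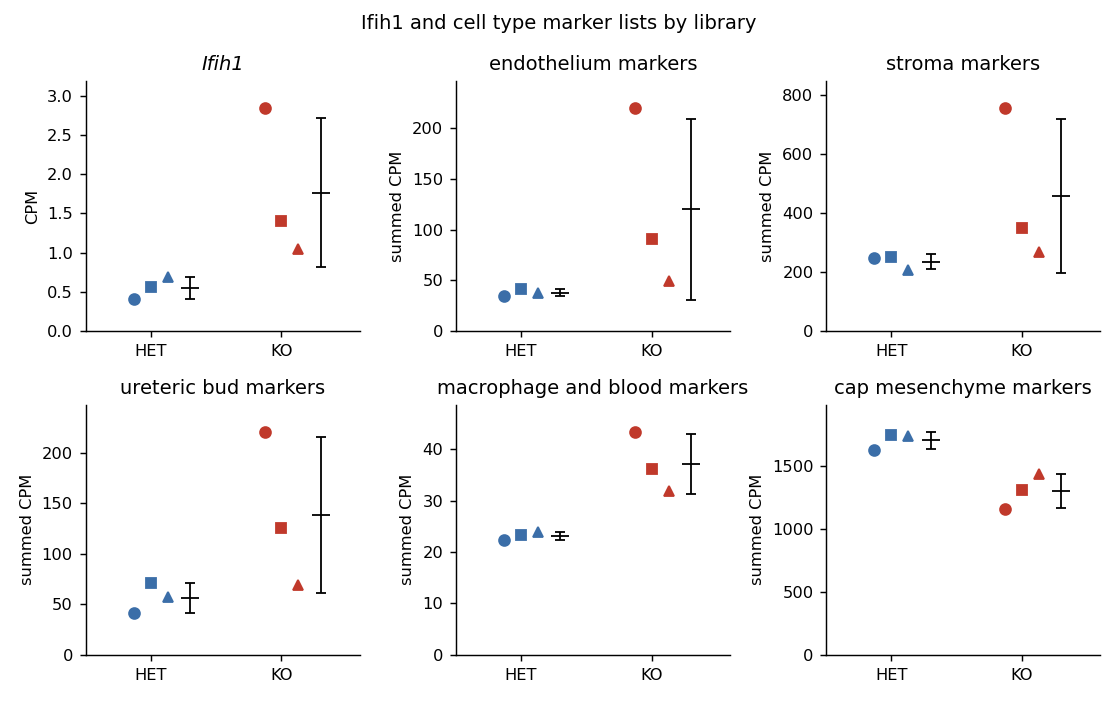
Ifih1 in CPM beside the summed CPM of 5 cell type marker lists, by library, with symbols for replicates 1 to 3 (circle, square, triangle) and bars for the mean and SD. In the knockout group Ifih1 and the endothelial, stromal, ureteric bud and macrophage lists are all highest in replicate 1 and lowest in replicate 3, while the cap mesenchyme list is lowest in replicate 1, at 1159 CPM, and highest in replicate 3, at 1433 CPM.

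The 3 genes whose profile over the 6 libraries lay closest to that of Ifih1, out of 9086 that code for protein and average 10 CPM or more, were Mt1, a metallothionein, Lrp2, the endocytic receptor megalin of the proximal tubule, and 0610010O12Rik. Their root mean square distances from Ifih1 were 0.142, 0.147 and 0.148, in log2 CPM centred on each gene's mean. A small constant was added to CPM before the logarithm, which shrinks differences more for Ifih1 than for genes at 10 CPM or more. The fitted log2 fold changes of the 3 genes were 1.18, 0.91 and 1.27, below the 1.67 of Ifih1. Mt1 was at 7.12, 10.9 and 9.73 CPM in the heterozygous and 28.9, 19.9 and 13.9 CPM in the knockouts, and Lrp2 at 13.8, 16.6 and 15.3 against 39.7, 24.8 and 21.7 CPM. Both were highest in knockout replicate 1 and lowest among the knockouts in replicate 3, like Ifih1. Genes picked for closeness to its profile tend to share that order, so this adds nothing to the choice itself. Lrp2 is also 1 of the tubule markers above.

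RIG-I, the helicase that shares its signalling domains with MDA5, did not pass the test. Ddx58 (chr4:40203777-40239825, minus strand) was at 18.3, 19.7 and 15.6 CPM in the heterozygous and 20.6, 18.6 and 14.7 CPM in the knockouts, a log2 fold change of 0.007 ± 0.15 (SE; adjusted p = 0.984, edgeR). The groups overlapped, the 95% interval of the fold ran from 0.799 to 1.26, and the sign of the difference changed with the scaling. In TPM the picture for the same gene was different, with 30.6, 29.1 and 23.5 in the heterozygous and 22.8, 15.5 and 19.5 in the knockouts, which did not overlap. The log2 difference on the log2(TPM + 1) scale was -0.51 (adjusted p = 0.0615, limma) and also did not pass. The largest share of the TPM of Ddx58 came from Ddx58-008, a non-coding entry of 435 bases, at 18.9, 17.4 and 14.8 TPM in the heterozygous and 11.9, 7.26 and 11.4 TPM in the knockouts. The coding transcript Ddx58-001 had 1.87, 1.92 and 1.35 TPM against 2.995, 2.24 and 1.55 TPM, so the 2 entries had differences of opposite sign, and on this coding transcript alone RIG-I would not have the highest level of the 9 genes.

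LGP2 had group means that nearly coincided, with a wide spread in both groups. Dhx58 (chr11:100694884-100704271, minus strand) was at 6.55, 4.65 and 3.49 CPM in the heterozygous and 3.90, 4.42 and 6.56 CPM in the knockouts. The groups covered nearly the same range, with a mean of 4.89 ± 1.55 CPM in heterozygous and 4.96 ± 1.41 CPM in knockout cells (SD, n = 3 each). The log2 fold change was 0.02 ± 0.28 (SE; adjusted p = 0.978, edgeR), and the 95% interval of the fold, 0.654 to 1.57, covers both lower and higher values.

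Mavs, through which both signalling helicases act, did not pass either. Mavs (chr2:131234063-131248025, plus strand) was at 26.2, 38.3 and 36.8 CPM in the heterozygous and 29.5, 33.1 and 31.1 CPM in the knockouts. All 3 knockout values fell between the lowest and the highest heterozygous value. The log2 fold change was -0.11 ± 0.14 (SE; adjusted p = 0.670, edgeR).

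The endosomal receptor and the adaptor of the DNA arm had small differences toward lower values. Tlr3 (chr8:45395665-45411075, minus strand) was at 1.87, 1.77 and 1.79 CPM in the heterozygous and 1.68, 1.41 and 1.73 CPM in the knockouts. The groups did not overlap, as for 29.0% of all genes tested (14.8% upward and 14.2% downward), and the log2 fold change of -0.17 ± 0.26 (SE) did not pass (adjusted p = 0.733, edgeR). Tmem173 (Sting1, chr18:35733678-35740554, minus strand) was at 26.5, 26.7 and 28.5 CPM in the heterozygous and 22.8, 29.3 and 23.3 CPM in the knockouts. Knockout replicate 2 had the highest value of all 6 and the other knockout libraries the lowest, and the log2 fold change was -0.12 ± 0.12 (SE; adjusted p = 0.596, edgeR).

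Zbp1, the sensor tied to necroptosis, had few counts in every library. Zbp1 (chr2:173206612-173218959, minus strand) had 15, 12 and 11 estimated counts in the heterozygous and 14, 32 and 10 in the knockouts, or 0.292, 0.204 and 0.243 against 0.297, 0.617 and 0.196 CPM. Knockout replicate 2 alone stood above the rest. The log2 fold change was 0.59 ± 0.55 (SE; adjusted p = 0.559, edgeR), and the 95% interval of the fold, 0.647 to 3.50, is the widest of the 8 genes that did not pass.

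PKR and the editing enzyme, which act on the double-stranded RNA itself, also did not pass. Eif2ak2 (chr17:78850504-78882572, minus strand) was at 42.9, 43.4 and 37.4 CPM in the heterozygous and 38.6, 32.1 and 39.7 CPM in the knockouts, a log2 fold change of -0.16 ± 0.11 (SE; adjusted p = 0.413, edgeR). Its groups overlapped. Adar (chr3:89714469-89753455, plus strand) was at 22.5, 22.8 and 22.4 CPM in the heterozygous and 26.4, 25.8 and 23.4 CPM in the knockouts. Every knockout value was higher, but the log2 fold change of 0.16 ± 0.10 (SE) did not pass (adjusted p = 0.383, edgeR), and it was -0.0034 when libraries were scaled to their totals alone. That scaling moved the median log2 fold change of all genes from -0.003 to -0.166.

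**Figure D3:**
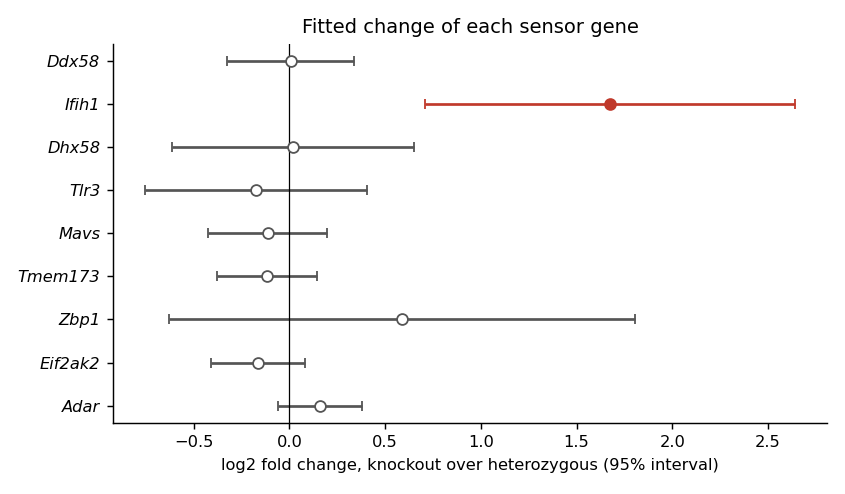
Fitted log2 fold change of knockout over heterozygous for each gene (x axis) with its 95% interval. The filled red point is Ifih1, the 1 gene called at an adjusted p of 0.05, and open points are the 8 genes that did not pass, whose intervals all include 0.

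Taking the 9 genes as a list, 5 had a positive and 4 a negative log2 fold change, with a median of 0.01 beside -0.003 for all genes tested. Their groups did not overlap for 3 of the 9 genes, Ifih1 and Adar upward and Tlr3 downward, beside 29.0% of all genes tested. Leaving Zbp1 aside, the 95% intervals of the fold for the 7 other uncalled genes reached at most 1.57 upward and 0.594 downward.

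The estimates for single transcripts gave no called change. The files held 40 transcripts of the 9 genes, 25 of which were tested among 50137 transcripts, and 0 were called (1.79% of all transcripts tested were called by edgeR). At an unadjusted p of 0.05, 5 of the 25 passed (beside 13.4% of all transcripts tested), and the smallest adjusted p was 0.296 (edgeR's quasi-likelihood test). Kallisto divides reads among transcripts that share sequence, and the error of that division is not in these values.

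For Adar 2 coding transcripts carried most of the counts. Adar starts from an upstream promoter and from an interferon-inducible promoter inside the gene, and the latter gives the longer protein, which is found in the cytoplasm. Adar-001, with 3534 coding bases, begins in the window printed above, and Adar-005, with 2790, begins in the upstream windows. Adar-001 was at 7.71, 10.4 and 15.1 CPM in the heterozygous and 8.25, 7.62 and 3.75 CPM in the knockouts (log2 fold change -0.76 ± 0.36, SE; adjusted p = 0.433, edgeR). Adar-005 was at 11.9, 9.95 and 4.68 CPM against 16.0, 16.0 and 17.6 CPM (0.90 ± 0.32; adjusted p = 0.303, edgeR). Heterozygous replicate 3 was the highest of all libraries for the first and the lowest for the second. Of the counts of this pair, Adar-001 held 39.4%, 51.0% and 76.3% in the heterozygous and 34.0%, 32.3% and 17.6% in the knockouts, which did not overlap. How often such shares fail to overlap for other transcript pairs was not counted. The 2 transcripts share 5780 exon bases and have 91 and 129 of their own, and neither difference passed the test.

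Other transcripts with larger estimates did not pass either. Ifih1-201 was at 0.313, 0.233 and 0.0807 CPM in the heterozygous and 2.15, 0.838 and 0.275 CPM in the knockouts (log2 fold change 2.36 ± 0.83, SE; adjusted p = 0.296, edgeR), and Ifih1-001 at 0.0521, 0.280 and 0.565 against 0.542, 0.522 and 0.698 CPM. The groups of both transcripts overlapped, whereas those of the gene did not. Mavs-003 was at 6.06, 5.04 and 6.28 CPM against 2.71, 4.17 and 4.41 CPM (-0.62 ± 0.24; adjusted p = 0.327, edgeR). Ddx58-001 was at 5.17, 5.93 and 4.16 CPM against 9.66, 8.05 and 5.20 CPM (0.58 ± 0.26), and Ddx58-008 at 3.77, 3.92 and 3.33 CPM against 2.79, 1.90 and 2.79 CPM (-0.56 ± 0.23, SE; adjusted p = 0.402 and 0.356, edgeR).

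**Figure D4:**
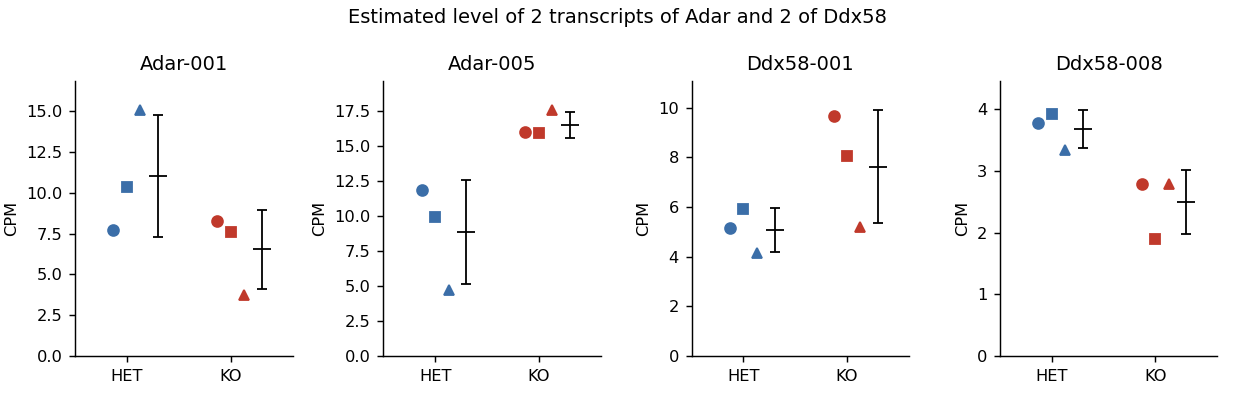
Estimated level in CPM (y axis, from 0) of 2 transcripts of Adar and 2 of Ddx58 by library, with circles, squares and triangles for replicates 1 to 3 and bars for the mean and SD. Adar-005 and Ddx58-008 do not overlap between groups, Adar-001 and Ddx58-001 do, and none of the 4 passed the test. The share of all transcripts without overlap was not counted.

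Further sensors were read from a list of 26 genes, of which 25 were found and 19 tested. Of these 2 were higher by edgeR (10.5%, beside 4.92% of all genes), 0 lower and 17 did not pass. The median log2 fold change was 0.62, beside -0.003 for all genes tested. DESeq2 called 5, beside 1346 higher and 586 lower of 22656 genes. Without knockout replicate 1 or 2 or heterozygous replicate 2 or 3, edgeR called 0. Both called genes belong to the oligoadenylate synthetase family, whose active members bind double-stranded RNA. Oas1a was at 0.953, 0.987 and 1.01 CPM in the heterozygous and 2.65, 3.41 and 1.47 CPM in the knockouts, and Oas2 at 0.019, 0.238 and 0.177 against 0.933, 0.926 and 0.806 CPM (adjusted p = 0.0431 and 0.0353, edgeR). Each of these calls was lost without any of 5 of the 6 libraries, knockout replicate 1 among them. None of the 12 sensor cofactors, such as the RIG-I ubiquitin ligase Trim25, was called by edgeR in either direction (2 of the 12 had an unadjusted p of 0.05 or less, and DESeq2 called 0).

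Along the signalling route, 1 of 19 adaptors and kinases was higher (4.92% of all genes were called higher), Casp8, a protease that also restrains necroptosis, with 17.8 ± 2.39 CPM in heterozygous and 27.02 ± 1.73 CPM in knockout cells (SD, n = 3 each; adjusted p = 0.0151, edgeR), and this call was lost without heterozygous replicate 3 or knockout replicate 2. Among 14 transcription factors 2 were higher and 1 lower, beside 6.85% of all genes called in either direction. DESeq2 called 5 of the 14, beside 1346 higher and 586 lower of 22656 genes. Nfkbia, the inhibitor of NF-kappaB, rose by 0.41 ± 0.09 and Irf9, the DNA-binding part of the interferon-activated complex, by 0.55 ± 0.14 on the log2 scale (SE), while Nfkb1 had a log2 fold change of -0.57 ± 0.14 (adjusted p = 0.0206, 0.0478 and 0.0312, edgeR). The call of Irf9 did not hold without heterozygous replicate 1 or 3 or knockout replicate 1 or 2, that of Nfkbia without heterozygous replicate 2 or 3 or knockout replicate 2, and that of Nfkb1 without heterozygous replicate 1 or 3 or knockout replicate 2 or 3.

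Interferon genes themselves were at or near 0. Ifnb1, Ifna1 and Ifna4 had 0 counts in every library, and Ifnk, with 5 to 16 estimated counts a library, was the highest of the 10 interferon genes. Of 18 interferons, receptors and receptor kinases 9 could be tested, with 0 called (edgeR; 1 had an unadjusted p of 0.05 or less, and DESeq2 called 0). Ifnar1, a chain of the type I interferon receptor, was at 50.2, 51.1 and 55.1 CPM in the heterozygous and 54.2, 54.3 and 50.6 CPM in the knockouts. Interferon-stimulated genes, a list that includes Ifih1, had 7 of 38 tested members higher (18.4%, beside 4.92% of all genes), 0 lower and 31 not passing, with a median log2 fold change of 0.93. The 4 with the smallest p were Ifit2, Lgals3bp, Bst2 and Xaf1. Bst2, a membrane protein that tethers budding virus, was at 3.36, 5.84 and 4.70 CPM in the heterozygous and 26.6, 21.9 and 11.5 CPM in the knockouts, and its call (adjusted p = 0.0128, edgeR) was lost without heterozygous replicate 1 or 3. Xaf1 rose by 0.95 ± 0.19, a call lost without heterozygous replicate 3 or knockout replicate 2, and Ifit2 and Lgals3bp by 0.76 ± 0.12 and 0.91 ± 0.16 on the log2 scale (SE), with calls that held without each library in turn. Without knockout replicate 1, the library with the highest levels of endothelial and stromal markers, 6 of the 38 were called higher. The count was 2 without heterozygous replicate 3, 3 without heterozygous replicate 1 or knockout replicate 2, 4 without heterozygous replicate 2 and 19 without knockout replicate 3. DESeq2 called 15 of the 38 with all libraries, beside 1346 higher and 586 lower of 22656 genes.

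The next list joined genes that clear or edit the cell's own nucleic acid, relatives of Adar, and brakes on the signalling. Of its 28 members 4 were higher (14.3%, beside 4.92% of all genes), 0 lower and 24 not passing, with a median log2 fold change of 0.08. Pnpt1, a mitochondrial exoribonuclease that keeps double-stranded RNA from accumulating, was at 66.4, 54.8 and 52.1 CPM in the heterozygous and 99.6, 97.02 and 105 CPM in the knockouts. Its log2 fold change of 0.80 ± 0.10 (SE; adjusted p = 0.000786, edgeR) held without each library in turn. Adad2 is a germ cell protein with an adenosine deaminase domain related to that of Adar. It had 0 counts in all heterozygous libraries and 22, 31 and 22 in the knockouts. That is at least 8.53-fold higher when each heterozygous library is set to 3 counts on the same scale. Adad2 passed the filter on low counts through the knockout libraries alone, so its call could only be upward. It is 1 of the 4 called members above. Adarb2, another relative of Adar, rose by 0.70 ± 0.15, and Tnfaip3, an inhibitor of NF-kappaB signalling, by 1.48 ± 0.37 on the log2 scale (SE; adjusted p = 0.0189 and 0.0386, edgeR). The list had 2 members called without heterozygous replicate 2 or 3 or knockout replicate 3. The call of Adarb2 was lost without heterozygous replicate 2 or 3 or knockout replicate 3, and that of Tnfaip3 without any library but heterozygous replicate 1.

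The partners through which Zbp1 and PKR act were read last. Beside the 4.92% of all genes called higher, 2 of 7 tested genes of the Zbp1 death pathway were higher (0 without knockout replicate 2, and 1 without knockout replicate 3 or any 1 heterozygous library), Casp8 as above and the necroptosis kinase Ripk3, which went from 31.95 ± 4.15 to 45.1 ± 2.90 CPM (SD, n = 3 each; adjusted p = 0.0235, edgeR), a call lost without 4 of the 6 libraries in turn. Of 13 genes for the kinases of eIF2alpha and the response to them 2 were higher (15.4%) and 11 did not pass. These were Trib3, a pseudokinase, from 0.384 ± 0.165 to 1.79 ± 0.462 CPM, and Chac1, a glutathione-degrading enzyme, from 0.702 ± 0.146 to 2.35 ± 0.320 CPM (SD, n = 3 each), both targets of the stress factors Atf4 and Ddit3. Both calls (adjusted p = 0.00808 and 0.00593, edgeR) held without each library in turn, and the genes of the other 3 kinases of eIF2alpha, Eif2ak1, Eif2ak3 and Eif2ak4, were not called.

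**Figure D5:**
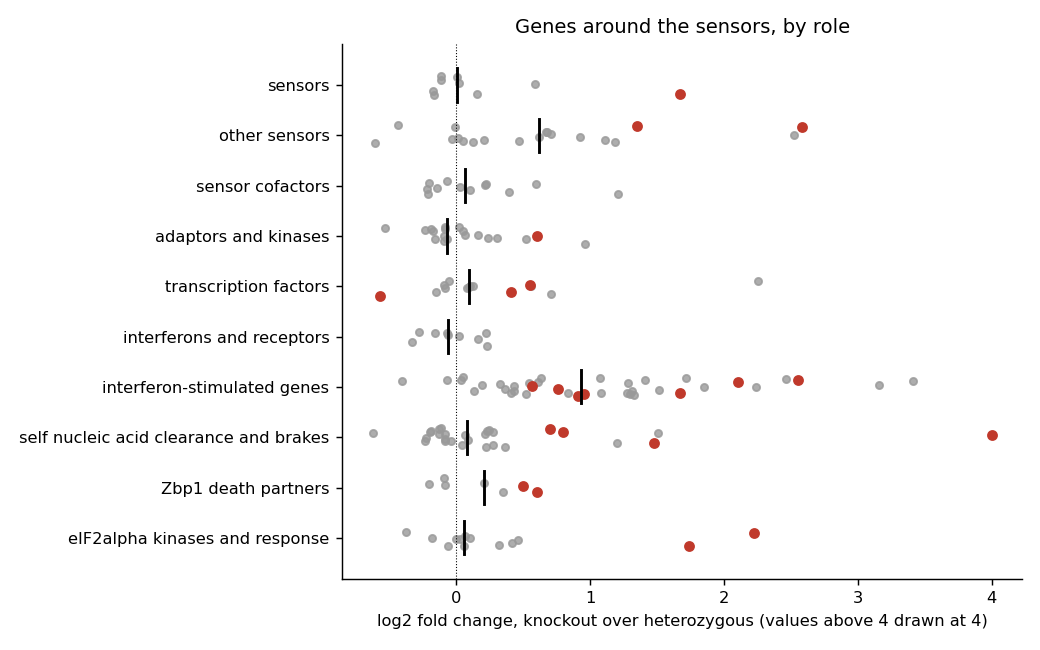
Fitted log2 fold change (x axis) of every tested gene in 10 lists of sensor, signalling and response genes. Red points passed at an adjusted p of 0.05, grey points did not, black bars are list medians, and Adad2, above 4 on this scale, is drawn at 4. The median of the interferon-stimulated genes is 0.93 and that of the 9 sensors is close to 0.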

How the data were processed

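The authors deposited 1 kallisto table per library (tool and build mm10 per the submitters' processing notes, version and index annotation not given in the sources used here), with estimated counts and TPM for 96626 transcripts, per the file headers. Labels and headers do not state strandedness. No other gene paired with a deposited transcript overlapped the 9 genes, and further annotated genes were not searched. The effective lengths in those files were used as an offset in 1 alternative. GENCODE vM1 paired 74519 transcripts with 26567 genes, holding 92.4% to 92.82% of each library's counts.

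Estimated counts were summed per gene, rounded and tested with edgeR 4.0.16 (limma 3.58.1, R 4.3.3): TMM, filterByExpr, robust quasi-likelihood test, Benjamini-Hochberg adjustment at 0.05, no covariates, 3 against 3 libraries. CPM values use TMM library sizes. Standard errors and 95% intervals come from the fit. Transcripts were fitted likewise. The scripts were tested on simulated data. Alternatives included DESeq2 1.42.0. No library pair agreed within sampling noise (chi-square per degree of freedom of at least 13.63). All 9 genes are named, with the called genes of each pathway list (up to the 4 with the smallest p) and the 3 genes closest in profile to each called sensor. The members and lists were chosen with earlier results of these data known. A further pathway list, beyond those whose counts are given, is not reported here. Counts per list with each library left out were added after seeing the data. Gene coordinates are RefSeq's for GRCm38.p6, the build mm10 corresponds to.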

Additional observations from a re-analysis of the deposited data

How the results depend on the processing

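The log2 fold change of Ifih1 was positive under all 16 alternatives that gave a value, at 0.34 to 1.94, but the call was lost under 10 of them, among them limma voom (adjusted p = 0.0763), protein-coding genes alone (0.0518, edgeR), dispersions not robust (0.0594, edgeR) and log2(TPM + 1) without a filter (0.245, limma). DESeq2 kept it (adjusted p = 0.0137). Ifih1, Tlr3 and Zbp1 have no value in the alternatives whose filter they did not pass. The other 8 genes were called under none. The sign of Ddx58 turned to -0.15 with library totals, -0.01 with voom, -0.51, -0.53 and -0.51 on the TPM scales, -0.40 with a length offset, and lay at -0.09 to 0.13 with 1 library left out, negative without heterozygous replicate 3 or knockout replicate 1 or 2 (-0.0076). Dhx58 turned to -0.15 with library totals, -0.12, -0.14 and -0.12 on the TPM scales, -0.01 with a length offset, and lay at -0.23 to 0.28 with 1 library left out, negative without heterozygous replicate 2 or 3 or knockout replicate 3, and Adar to -0.0034 with library totals. The cause was not tested.

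Over all genes, 836 were higher and 327 lower. Library totals gave 1883 lower, DESeq2 1346 and 586, log2(TPM + 1) 457 and 761, log2(TPM + 0.1) 454 and 756, and log2(TPM + 1) without a filter 548 higher. Leaving out 1 library gave 526 to 916 higher and 116 to 272 lower, with both of the smallest counts without knockout replicate 2, and 170 and 171 lower without heterozygous replicates 2 and 3. Same-numbered libraries did not deviate together (correlations -0.062, -0.026 and -0.047), and pairs with other numbers ran from -0.103 to 0.124. Deviations from a mean of 3 libraries cancel within a group, so these values cannot settle whether libraries are paired. With the replicate block 707 genes were higher and 265 lower, and Ifih1 had 1.56 (adjusted p = 0.122, edgeR). With 10 to 32 estimated counts for Zbp1, depth limits what can be said of it.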
